A study of Mus musculus with 6 samples.

Results

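The mouse genes of the J-domain cochaperone family were examined in leukemia cells from mice treated with AG636 or vehicle. The members were all protein-coding genes whose symbol is Dnaj followed by a class letter (a, b or c) and a number, with 1 class b gene left out by the rule and not analysed here. This gave 44 of the 54838 genes counted, 4 of class a, 12 of class b and 28 of class c. The rule itself uses no measured value.

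All samples were I1DN acute myeloid leukemia (AML), a murine leukemia on a C57BL/6 background that carries IDH1R132H, DNMT3AR882H and NrasG12D and was started from fetal liver progenitors that were made to express these alleles. The AML cells had been transplanted into sublethally irradiated Ptprca mice, so host blood cells may remain beside the leukemia. The 3 Vehicle mice received vehicle, and the 3 AG636 mice received AG636, an inhibitor of the pyrimidine synthesis enzyme DHODH, by oral gavage b.i.d. at 100 mg per kg body weight. The treatment time and the ages of the mice are not given in the labels. Immature cells, high or positive for cKit and low or negative for CD11b, were sorted from bone marrow and spleen, and their RNA was read from the 3′ end of each transcript. The labels do not say which of these tissues each library came from, so a difference in tissue between the groups cannot be told apart from treatment. The comparison asks how inhibition of DHODH altered transcript levels in these immature cells.

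J-domain proteins deliver unfolded or assembled clients to HSP70 chaperones and stimulate the ATPase of HSP70 through a conserved histidine-proline-aspartate (HPD) motif. HSP70 then holds the client until a nucleotide exchange factor releases ADP. Class a members resemble bacterial DnaJ and carry a cysteine-rich, zinc-binding repeat, class b members have the J domain without that repeat, and class c members share only the J domain and place it anywhere in the protein. In blood cells these cochaperones serve folding of new proteins in the cytosol, the endoplasmic reticulum (ER) and mitochondria, ribosome assembly, and uncoating of endocytic vesicles.

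The coding sequence around the HPD codons is shown for the members on which the results turn, since this motif makes a J-domain protein an HSP70 partner. In each 60-base coding stretch (GENCODE, GRCm38) the capitals mark the 3 codons for histidine, proline and aspartate. The coordinates are those of the first and last base, and the stretches of Dnaja1, Dnaja2, Dnaja3, Dnajc2, Dnajc21 and Dnajc6 are split over exons.
Dnaja1, chr4:40723788-40723975, plus strand: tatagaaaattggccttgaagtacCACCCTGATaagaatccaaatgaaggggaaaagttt
Dnaja2, chr8:85553408-85553973, minus strand: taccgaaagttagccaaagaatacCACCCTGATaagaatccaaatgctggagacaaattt
Dnaja3, chr16:4687362-4690031, plus strand: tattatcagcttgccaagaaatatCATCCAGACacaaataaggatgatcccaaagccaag
Dnajb11, chr16:22862606-22862665, plus strand: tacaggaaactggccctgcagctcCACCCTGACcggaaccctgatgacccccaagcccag
Dnajc2, chr5:21776757-21781321, minus strand: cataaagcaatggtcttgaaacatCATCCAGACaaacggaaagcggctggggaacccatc
Dnajc11, chr4:151950421-151950480, plus strand: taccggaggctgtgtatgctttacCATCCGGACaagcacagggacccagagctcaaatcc
Dnajc21, chr15:10463952-10470295, minus strand: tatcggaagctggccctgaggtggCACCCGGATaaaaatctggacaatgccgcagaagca
Dnajc25, chr4:59003432-59003491, plus strand: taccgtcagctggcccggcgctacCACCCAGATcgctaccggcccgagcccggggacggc
Dnajc6, chr4:101639407-101640495, plus strand: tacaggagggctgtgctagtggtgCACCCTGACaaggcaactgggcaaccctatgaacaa
Dnajc28, chr16:91617094-91617153, minus strand: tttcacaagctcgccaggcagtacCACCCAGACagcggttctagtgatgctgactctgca
Dnajb1, chr8:83608401-83608460, plus strand: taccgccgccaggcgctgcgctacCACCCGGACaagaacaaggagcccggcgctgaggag

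Exactly 1 in-frame HPD was encoded by 43 of the 44 members. The exception was Dnajb13, a class b gene known from sperm and other motile cilia, which encoded none. The cysteine-rich repeat was encoded by 4 of 4 class a genes and by 0 of the 40 others. The stretches of Dnaja1 and Dnaja2 matched at 46 of 60 positions, and that of the mitochondrial class a gene Dnaja3 matched Dnaja1 at 29. The motif lay 8.6 to 25.2% of the way along the class a proteins, 8.5 to 36.8% along the class b proteins and 5.8 to 96.3% along the class c proteins.

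The libraries held 4634963 to 7906589 counts in genes, so that 3 counts corresponded to 0.392 to 0.637 CPM (counts per 1000000 counts in genes tested, after TMM scaling of the library sizes). Of the 44 members, 36 passed the filter on low counts and 8 did not. Dnaja4, Dnajb3, Dnajb5 and Dnajc22 held 1 to 26 counts over the 6 samples, and Dnajb7, Dnajb8, Dnajc5b and Dnajc5g held 0. Progenitor markers were present, with Kit at 31.8 to 46.3 CPM and Myb at 396.9 to 552.1 CPM, whereas Flt3 did not pass the filter. Of the same list, Ptprc rose past an adjusted p of 0.05, with a log2 fold change of 0.65. Kit, Myb, Cd34 and Mpo had 0.15, 0.03, 0.45 and -0.65 and did not pass. Mpo varied widely among mice, from 618 to 2772 CPM. Of 6 neutrophil markers 5 rose past an adjusted p of 0.05, with summed levels of 1014 to 2337 CPM in Vehicle and 2834 to 5833 CPM in AG636. Itgam, which encodes CD11b, rose with a log2 fold change of 1.21. The erythroid factor Klf1 fell. Of 4 megakaryocyte markers 2 rose (Itga2b and Gp9), of 6 macrophage markers 1 rose (C1qb), and the others of these 2 lists did not pass. The B-cell markers Cd79a, Ms4a1 and Pax5 lay at 0 to 1.51 CPM, whereas Cd79b was at 5.349 to 19.12 CPM with a log2 fold change of 0.55 that did not pass. Of the T-cell and NK-cell markers, Cd3d, Cd3e, Cd3g and Klrb1c lay at 0 to 2.454 CPM, whereas Nkg7 was at 191.1 to 492.5 CPM with a log2 fold change of 0.51 that did not pass. All differences below stand beside these marker shifts, and the part of the shifts in them was not tested. In bulk RNA, fewer cells of a type and less RNA per cell cannot be told apart.

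The summed J-domain level was lower in the AG636 samples. It is a share of the counts, abundant genes weigh most in it, and its difference was not tested. The levels of the 44 members summed to 2902, 2835 and 2948 CPM in the 3 Vehicle samples and to 2472, 2380 and 2367 CPM in the 3 AG636 samples. The groups did not overlap, and the AG636 mean was 16.9% below the Vehicle mean. Of the 36 members tested, 8 fell, 3 rose and 25 did not pass the threshold, an adjusted p of 0.05 given by the quasi-likelihood test of edgeR and adjusted after Benjamini and Hochberg over all 11092 genes tested. Over all genes tested, 11.0% fell and 10.3% rose (21.3% in either direction). The groups did not overlap for 16 members, 11 lower and 5 higher, against 41.1% of all genes tested. The median log2 fold change of the 36 was -0.15, beside 0.03 for all genes tested. By sign, 22 of the 36 were lower and 14 higher, and 47.7% of all genes tested were lower. The count of members that fell was 5 without Vehicle replicate 1, 5 without Vehicle replicate 2, 4 without AG636 replicate 1 and 2 without AG636 replicate 3, and Dnajb11 and Dnajc11 passed in each of the 6 fits that left out 1 library.

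**Figure D1:**
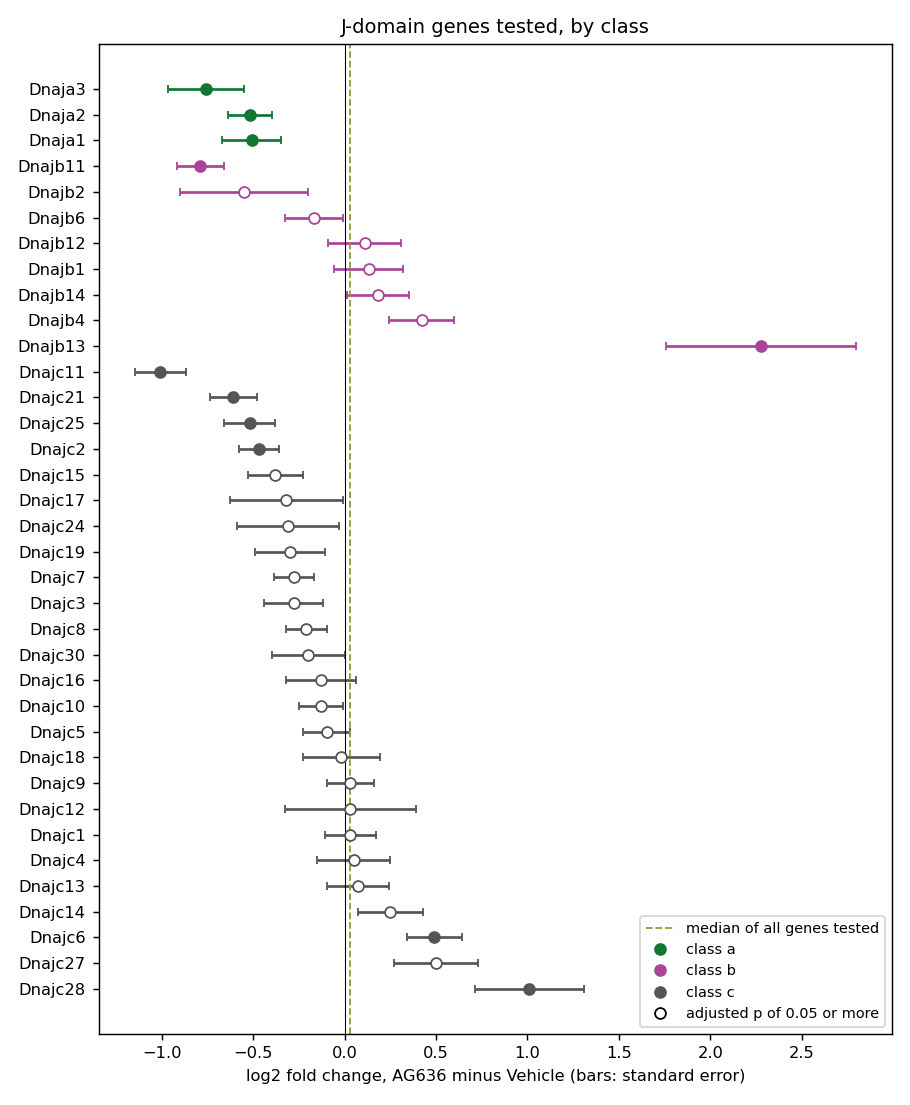
Log2 fold change (horizontal axis, AG636 minus Vehicle) of the 36 J-domain genes tested, with bars of 1 standard error; colours give the class, filled points passed an adjusted p of 0.05 and the dashed line is the median of all genes tested (0.03). The 3 class a genes lie between -0.76 and -0.51, while class b and class c genes lie on both sides of 0.

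Class a members are general folding cochaperones, and each of the 3 that were tested fell. Dnaja2, a cytosolic partner of HSP70 and the constitutive HSC70, was at 287.4, 236.1 and 256.8 CPM in Vehicle and at 177.1, 189.1 and 175.9 CPM in AG636. The AG636 values were close together and all below the lowest Vehicle value. Its log2 fold change was -0.52 ± 0.12 (SE, n = 3 per group), with an adjusted p of 0.0142 by the edgeR test, and the call was lost without AG636 replicate 1 (0.0528) or AG636 replicate 3 (0.0564). Dnaja1, the other abundant cytosolic class a member, was at 260.0, 216.1 and 279.6 CPM in Vehicle and at 200.5, 136.9 and 191.2 CPM in AG636. The groups did not overlap, but AG636 replicate 1 lay only just under Vehicle replicate 2. Its log2 fold change was -0.51 ± 0.16 (adjusted p = 0.0484 by the same edgeR test), and none of the 6 fits without 1 library kept it under 0.05 (adjusted p 0.0603 to 0.107).

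Dnaja3 (also called Tid1), the mitochondrial class a member that works with the matrix HSP70 Hspa9, was at 66.33, 43.69 and 51.19 CPM in Vehicle and at 28.89, 39.59 and 26.62 CPM in AG636. AG636 replicate 2 came near Vehicle replicate 2, and the groups did not overlap. It changed by -0.76 ± 0.21 on the log2 scale (adjusted p = 0.0291 in edgeR), and it missed the threshold without Vehicle replicate 1 (0.082), AG636 replicate 1 (0.0927) or AG636 replicate 3 (0.106). The summed level of the 4 class a genes fell from 613.9, 496.1 and 588.0 CPM to 406.7, 366.0 and 394.0 CPM, a mean change of -31.3%. Of these 3 genes, 1 passed without Vehicle replicate 1 and 0 passed without AG636 replicate 1 or without AG636 replicate 3. Exons of Dnaja1 share 608 bases with Smu1 on the other strand (log2 fold change -0.25, not past the threshold), and those of Dnaja3 share 217 bases with Coro7 (0.51, not past the threshold). The use of strand in counting is not given in the sources used here, so reads in these bases cannot be assigned to 1 gene.

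**Figure D2:**
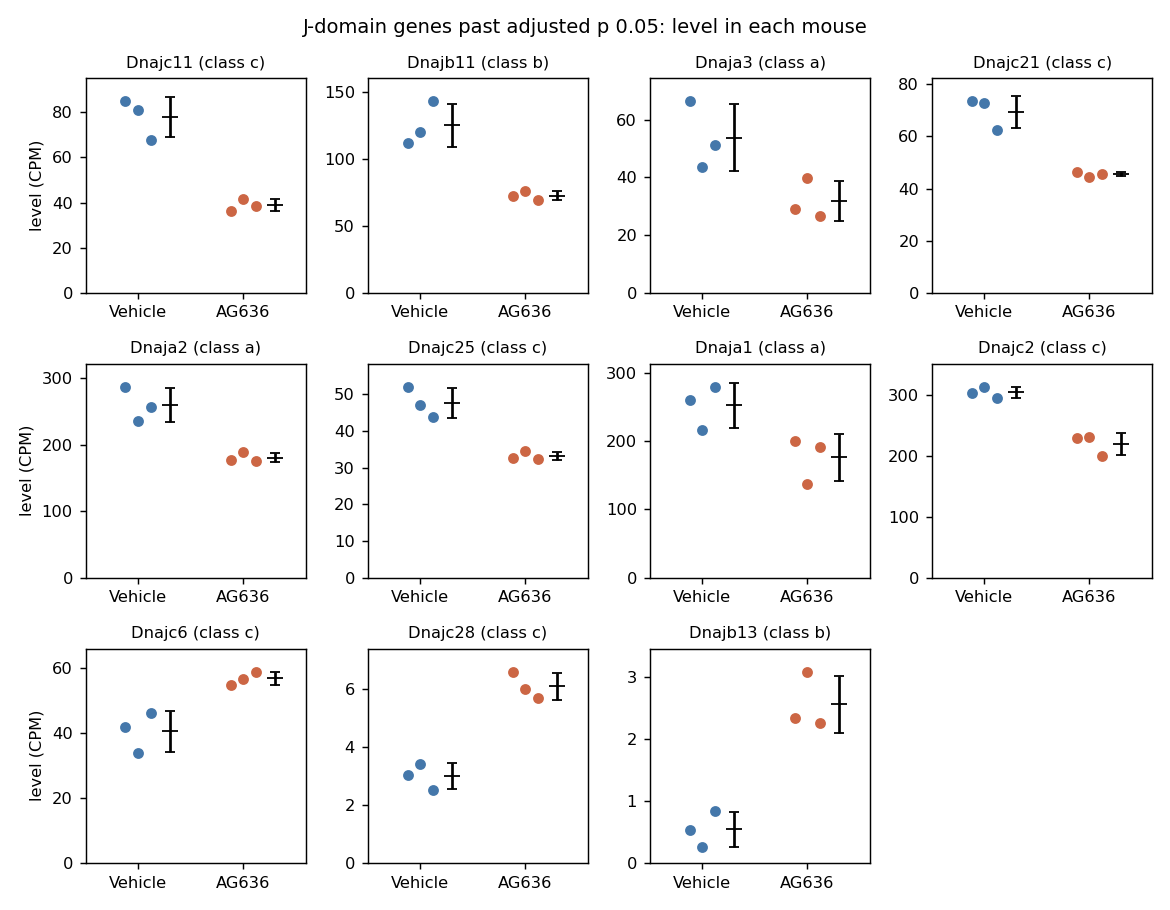
Level (CPM, vertical axis from 0) in each Vehicle (blue) and AG636 (orange) mouse of the 11 J-domain genes past an adjusted p of 0.05, with the mean and SD of each group in black (n = 3). The groups do not overlap in any panel, but the panels were picked by adjusted p in these same samples, so this adds no support. Dnajb13 and Dnajc28 are plotted at levels of a few CPM.

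Of 8 class b members tested, 1 fell (Dnajb11), 1 passed as higher (Dnajb13) and 6 did not pass the threshold. A share of 12.5% lower is close to the 11.0% of all genes tested, and Dnajb13 passed the filter on low counts only through the AG636 group. Their median log2 fold change was 0.12. Dnajb1, the main heat-inducible class b member, was at 88.43, 107.5 and 140.2 CPM in Vehicle and at 134.7, 98.36 and 134.4 CPM in AG636. The groups overlapped over most of their range, and the variation among mice within a group was larger than the difference between group means (112.1 ± 26.2 and 122.5 ± 20.9 CPM, mean ± SD). The log2 fold change of Dnajb1 was 0.13 ± 0.19 (adjusted p = 0.646 in edgeR), and it was -0.03 without Vehicle replicate 1. Hspa1b, the heat-inducible HSP70 and named here after its values were seen, was at 104.5, 134.1 and 317.0 CPM in Vehicle and at 337.3, 188.9 and 313.9 CPM in AG636. Both genes were lowest in Vehicle replicate 1 and low in AG636 replicate 2, and both were high in Vehicle replicate 3 and AG636 replicates 1 and 3.

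Dnajb11 (ERdj3), a soluble ER cochaperone of the HSP70 protein BiP, was at 112.3, 120.3 and 143.1 CPM in Vehicle and at 72.43, 75.88 and 69.28 CPM in AG636. All AG636 values lay well below the lowest Vehicle value. This gave a log2 fold change of -0.79 ± 0.13 (adjusted p = 0.00543 in edgeR), the largest decrease among class b genes tested. Dnajb6, which suppresses aggregation of polyglutamine proteins, had a log2 fold change of -0.17, and the ER-membrane members Dnajb12 and Dnajb14 had 0.11 and 0.18. Dnajb4 had 0.42 and Dnajb2, which has neuronal forms, -0.55 with a standard error of 0.35. None of these 5 passed the threshold.

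Dnajb13 was close to the limit of detection. It was at 0.5349, 0.2616 and 0.8358 CPM in Vehicle, which are 3, 2 and 4 counts, and at 2.336, 3.093 and 2.265 CPM in AG636, which are 11, 15 and 12 counts. It passed the filter only through the AG636 group, so that a difference had to appear, and the fitted log2 fold change of 2.28 ± 0.52 (adjusted p = 0.0156 in edgeR) depends on the prior count. The ratio of the summed counts, corrected for library size, was 5.13 with a 95% exact binomial interval of 2.44 to 12.1, which covers counting error only. Without Vehicle replicate 2 the adjusted p was 0.0676. Its exons share 305 bases with Ucp2 on the other strand, which held 5828 counts and had a log2 fold change of 0.05.

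Class c members are specialised, and they are described by location lists. These lists were assigned from general knowledge of the proteins and may not be complete. Of 25 tested, 4 fell, 2 rose and 19 did not pass, and their median log2 fold change was -0.13. A share of 16.0% lower is not far from the 11.0% of all genes tested, of which 10.3% rose. The counts by compartment below are small and stand beside the same shares. Without AG636 replicate 3 only Dnajc11 remained among those that fell, and without Vehicle replicate 2 the count was 2. The summed level of the 28 class c genes was 1864, 1850 and 1837 CPM in Vehicle and 1641, 1582 and 1549 CPM in AG636. The AG636 mean was 14.0% lower, with no overlap. Whether the 3 classes differ from each other was not tested.

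Dnajc11 showed the largest decrease of the family. Its protein sits at the mitochondrial outer membrane and associates with the MICOS complex, which shapes the cristae. It was at 84.87, 81.23 and 67.70 CPM in Vehicle and at 36.32, 41.45 and 38.51 CPM in AG636. Every AG636 value was far below every Vehicle value. Its log2 fold change of -1.01 ± 0.14 (adjusted p = 0.00324 in edgeR) is a change of -50.3%.

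The other mitochondrial members varied in direction. Dnajc28, a poorly described gene predicted to be mitochondrial, was at 3.031, 3.401 and 2.507 CPM in Vehicle and at 6.584, 5.980 and 5.663 CPM in AG636. The AG636 values were all higher, on 12 to 31 counts per library. Dnajc28 had a log2 fold change of 1.01 ± 0.30 (adjusted p = 0.0371 in edgeR), and each of the 6 fits without 1 library lost the call (0.0638 to 0.108), as did DESeq2 (0.0793). Dnajc15, a regulator of the inner-membrane translocase, was at 41.01, 41.33 and 43.88 CPM in Vehicle and at 35.26, 32.37 and 29.64 CPM in AG636. Its groups did not overlap, but the log2 fold change of -0.38 ± 0.15 missed the threshold (adjusted p = 0.0915 in edgeR). The related translocase subunit Dnajc19 had -0.30, and Dnajc30 and Dnajc4 had -0.20 and 0.05. Of the 7 mitochondrial members, Dnaja3 included, 2 fell, 1 rose and 4 did not pass, with a median of -0.30.

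Of the 6 members listed under nucleus, RNA and ribosome, 5 lay below 0, as did 47.7% of all genes tested. Dnajc2 (Zuotin, MPP11), which forms the ribosome-associated complex with the HSP70 protein Hspa14 at the exit of the ribosome, was at 303.1, 313.1 and 294.4 CPM in Vehicle and at 228.7, 230.5 and 198.6 CPM in AG636. Both groups were tight and apart from each other. The log2 fold change was -0.47 ± 0.11 (adjusted p = 0.0176 in edgeR), and it missed the threshold without Vehicle replicate 2 (0.0533) and without AG636 replicate 3 (0.0727). Dnajc21, which helps recycle factors of late large-subunit assembly and is mutated in a bone marrow failure syndrome, was at 73.46, 72.72 and 62.48 CPM in Vehicle and at 46.30, 44.54 and 45.68 CPM in AG636. The AG636 values spanned less than 2 CPM and lay below all Vehicle values. Dnajc21 changed by -0.61 ± 0.13 on the log2 scale (adjusted p = 0.0126 in edgeR), with 0.0502 without AG636 replicate 3. The splicing-associated Dnajc8 and Dnajc17 had -0.21 and -0.32, the diphthamide synthesis gene Dnajc24 -0.31 and the histone cochaperone Dnajc9 0.03. None of these 4 passed the threshold, and the median of the 6 members of this list was -0.32.

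Of the 9 members listed for the ER, 2 fell and 7 did not pass, with a median of -0.13. Beside Dnajb11, Dnajc25 fell, a membrane-anchored member that is little described. It was at 52.06, 46.96 and 43.88 CPM in Vehicle and at 32.71, 34.44 and 32.28 CPM in AG636. The groups were apart by more than the spread of the AG636 values. Dnajc25 had a log2 fold change of -0.52 ± 0.14 (adjusted p = 0.0298 in edgeR), and it missed the threshold without Vehicle replicate 1 (0.0911), Vehicle replicate 2 (0.0704), AG636 replicate 1 (0.0836) or AG636 replicate 3 (0.0997). Dnajc25 shares 1044 exon bases with a readthrough gene on its strand that held 0 counts. Dnajc3 (p58IPK), which binds clients in the ER lumen, had -0.28, and the disulfide reductase Dnajc10 (ERdj5) had -0.13. Dnajc16, Dnajc18 and Dnajc1 had -0.13, -0.02 and 0.03, and none of these 5 passed the threshold.

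Of the members that work on vesicles, none fell by the test and 1 rose. Dnajc6, auxilin 1, recruits HSC70 to strip clathrin from coated vesicles. It was at 41.72, 33.75 and 46.18 CPM in Vehicle and at 54.80, 56.71 and 58.90 CPM in AG636. The AG636 values were all above the highest Vehicle value. The log2 fold change was 0.49 ± 0.15 (adjusted p = 0.0464 in edgeR), and it passed the threshold only without Vehicle replicate 3 among the 6 fits that left out 1 library (the other 5 gave 0.0743 to 0.145). Dnajc27, a Rab-like GTPase with a J domain, had 0.50, the endosomal Dnajc13 0.07 and the synaptic vesicle protein Dnajc5 -0.10, and these 3 did not pass. The median of the 4 was 0.28, and their summed level was 182.6 to 192.4 CPM in Vehicle and 198.0 to 209.8 CPM in AG636. Exons of Dnajc6 share no bases with another gene.

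Among the cytosolic folding members, Dnajc7 (TPR2), which passes clients between HSP70 and HSP90, lay nearest the threshold of those that did not pass. It was at 151.2, 151.9 and 140.4 CPM in Vehicle and at 121.9, 120.4 and 121.8 CPM in AG636. The groups did not overlap, and the AG636 values were nearly equal. Dnajc7 changed by -0.28 ± 0.11 on the log2 scale, with an adjusted p of 0.0868 in edgeR. Exons of Dnajc7 share 616 bases with Cnp (-0.23) and 590 with Nkiras2 (-0.11) on the other strand, and neither passed. Other members that did not pass also share exon bases, such as Dnajc14 (4810 with Ormdl2) and Dnajc30 (705 with Bud23, which fell). Of the 7 cytosolic folding members tested, 2 fell (Dnaja1 and Dnaja2) and 5 did not pass, with a median of -0.28. Of the members in no location list, Dnajc14 and Dnajc12 had 0.25 and 0.03 and did not pass.

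The HSP70 proteins that these cochaperones serve are background for the family, and 3 of 8 tested fell while 5 did not pass. Hspa8, the constitutive cytosolic HSC70, was at 404.4, 394.5 and 383.4 CPM in Vehicle and at 182.9, 154.4 and 208.0 CPM in AG636. Every AG636 value was far below the Vehicle values, with a log2 fold change of -1.12 ± 0.13 (adjusted p = 0.00203 in edgeR). The ER protein Hspa5 (BiP) had -0.87 and the mitochondrial Hspa9 -0.84, and both passed in each of the 6 fits without 1 library. Over all genes tested, 47.7% were lower by sign and 11.0% fell. Nucleotide exchange factors were lower by sign in 14 of 14 genes, and 5 fell. These were Hsph1 (-1.92), Bag2 (-1.32), the ER factor Hyou1 (-0.99), Hspa4 (-0.68) and the mitochondrial Grpel1 (-0.63). The helpers Stip1, St13 and Stub1 fell, with -0.77, -0.65 and -0.52, and of 5 J-domain genes with other symbols none passed. The medians were -0.15 for the HSP70 proteins, -0.46 for the exchange factors, -0.65 for the 3 helpers and -0.24 for the other J-domain genes, beside 0.03 for all genes tested.

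**Figure D3:**
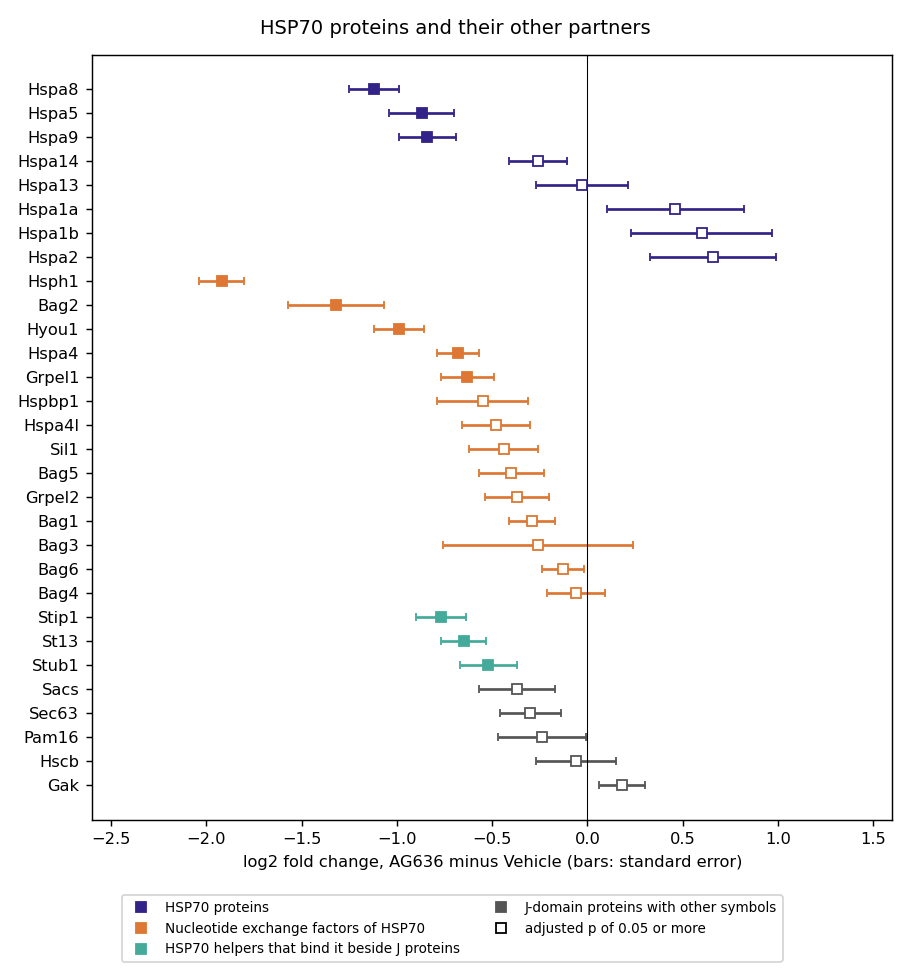
Log2 fold change (horizontal axis, AG636 minus Vehicle, bars of 1 standard error) of the HSP70 proteins, their nucleotide exchange factors, HSP70 helpers and J-domain genes with other symbols; filled squares passed an adjusted p of 0.05. Hsph1 (-1.92) is the lowest, the 14 exchange factors lie below 0, and Hspa1a, Hspa1b and Hspa2 lie above 0 without passing.

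The balance between a cochaperone and its HSP70 was compared within each sample as the log2 ratio of their counts, which needs no scaling of the libraries. These 7 ratios were chosen after the values were seen. The log2 ratio of Dnajb1 to Hspa8 was -2.19, -1.88 and -1.45 in Vehicle and -0.44, -0.65 and -0.63 in AG636. The 2 groups lay apart, with means that differed by 1.27. For Dnajc7 to Hspa8 the means were -1.42 and -0.57, for Dnaja1 to Hspa8 -0.65 and -0.05, and for Dnaja2 to Hspa8 -0.60 and 0.00. In each of these pairs all AG636 samples were above all Vehicle samples, that is, Hspa8 was lower by more than its cytosolic cochaperones.

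The pairs in the ER and in mitochondria differed less. The log2 ratio of Dnajb11 to Hspa5 was -2.81, -3.13 and -3.00 in Vehicle and -3.14, -2.54 and -2.99 in AG636. That of Dnaja3 to Hspa9 was -2.90, -3.15 and -3.10 in Vehicle and -3.07, -2.88 and -2.92 in AG636. In both pairs the groups overlapped and the means differed by 0.09. Between the cytosolic cochaperones, the log2 ratio of Dnaja1 to Dnajb1 was 1.56, 1.01 and 1.0 in Vehicle and 0.57, 0.48 and 0.51 in AG636, with no overlap. A two-sided exact permutation test of 3 against 3 samples cannot go below 0.1. It gave 0.1 for the 5 ratios whose groups did not overlap (0.14 after Benjamini-Hochberg adjustment over the 7), 0.8 for Dnajb11 to Hspa5 and 0.3 for Dnaja3 to Hspa9. The ratios to Hspa8 share that gene, and Dnaja1 to Dnajb1 reuses genes of those pairs, so these 5 are not separate tests. Since the ratios were chosen after the values were seen, neither the lack of overlap nor these p-values can serve as a test.

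**Figure D4:**
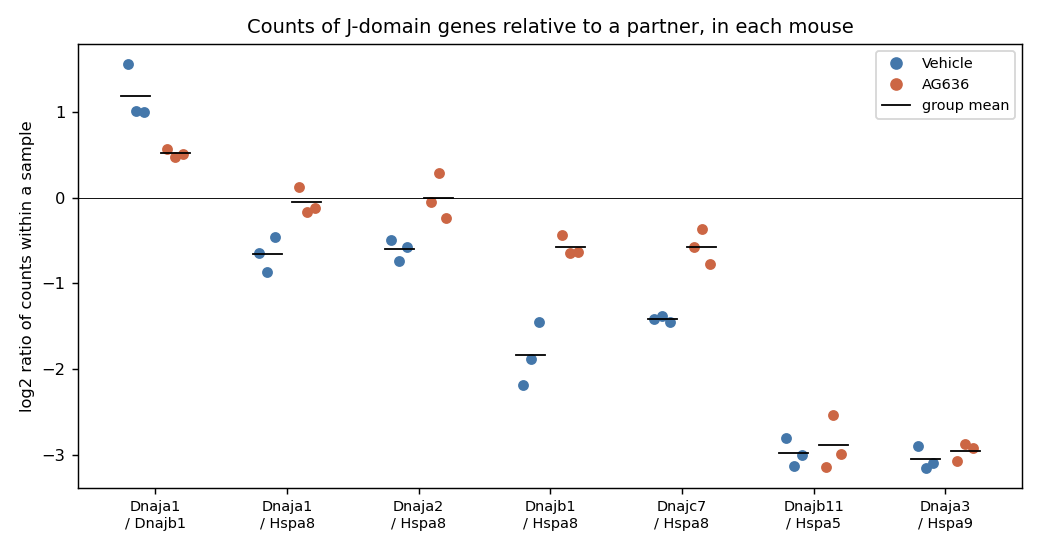
Log2 ratio of the counts of 2 genes within each Vehicle (blue) and AG636 (orange) mouse, with group means as black lines. The 4 ratios to Hspa8 are higher in every AG636 mouse, Dnaja1 to Dnajb1 is lower in every AG636 mouse, and the ratios to Hspa5 and Hspa9 overlap.

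Promoters of the members were searched for motifs of 3 regulators, heat shock factor, YY1 and ATF4. RefSeq promoter windows (GRCm38.p6, 250 bases before to 50 after the start site) were found for 36 of the 44 members. The YY1 core, searched as AANATGGC on both strands, was present in 5 of these 36 members (13.9%) and in 5 of their 49 windows. Of all 27025 genes with a window 6.96% held it, as did 6.05% of the 32851 windows. Some genes have more than 1 window, and whether these shares differ was not tested. The stretches below show it in capitals with 11 bases on each side, and the capitals of Dnajc6 are the reverse complement.
Dnajc7, chr11:100619589-100619618, minus strand: gtcccggcggtAAGATGGCggctaccgcgg
Dnajc8, chr4:132535572-132535601, plus strand: ggttagccgggAAAATGGCggcttcgggag
Dnajc13, chr9:104262887-104262916, minus strand: aagcctggtggAAGATGGCggcgtccaggg
Dnaja4, chr9:54699320-54699349, plus strand: ccgagcaccccAACATGGCccgtggcggca
Dnajc6, chr4:101507913-101507942, plus strand: tccggttccatGCCATGTTttggaagtcgt
In Dnajc7, Dnajc8 and Dnajc13 the core began 21, 25 and 26 bases into the transcript, in Dnaja4 and Dnajc6 upstream of the start. Of these 5 genes, Dnajc6 rose, Dnaja4 was not tested and the other 3 did not pass the threshold. A heat shock element of 3 units, GAA, TTC and GAA with 2 bases of any kind between units, was found in Dnajb6 alone among members (2.8% of the 36) and in 0.662% of all genes with a window. The ATF4 and CEBP composite TGATGNAA was in the windows of 0 members and of 4.51% of all genes with a window. A match describes these letters in these windows and shows no binding.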

How the data were processed

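RNA sequencing of sorted I1DN cells was analysed (3 Vehicle and 3 AG636 mice, grouped by their labels). The authors made QuantSeq 3′ libraries, and the deposited values are raw counts per gene and sample. The submitters' processing notes name FastQC, cutadapt 1.9.1, HISAT2 2.0.4 and featureCounts (Subread 1.5.0-p3), with GRCm38 (mm10). Reads at the 3′ end do not scale with transcript length. No column of sample values was left unused (0 columns).

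Identifiers were matched to GENCODE M21 (54809 of 54838 with a symbol). The members and lists were chosen with earlier results of these data known. Counts were fitted over the whole table with edgeR 4.0.16 in R 4.3.3 (TMM and the quasi-likelihood test, no covariate, on genes that filterByExpr kept at its count minimum of 10 and total minimum of 15). The study used limma; edgeR was taken because the values are counts. The p-values were adjusted by Benjamini-Hochberg over 11092 genes, and the standard error is the log2 fold change divided by the square root of F. Pairs of mice of the same group had a chi-square per degree of freedom of 6.67 to 15.9, more than counting error alone gives. The precision of a value thus depends on variation among mice as well as on the 4634963 to 7906589 counts per library. On simulated counts at these depths the fit called 49% of genes changed by 0.7 (log2) and 83% of those changed by 1, with 11 unchanged genes called among 10957 tested. The simulation changed 100 genes of each size, drawn only from the more abundant genes, whereas 21.3% of all genes tested passed in the data. Its shares therefore do not give the recovery in these data, nor that of members at low counts.

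Named genes were every member past the threshold, the 2 nearest to it on the other side, Dnaja1, Dnaja2, Dnajb1, Dnajc2 and Dnajc7, and genes of the partner lists past the threshold; the other members are given by value. Location and partner lists were assigned from general knowledge of the proteins. Alternatives were median-of-ratios and total-count scaling, DESeq2 1.42.0, limma-voom 3.58.1, a replicate block, a threshold of 0.01, leaving out each library, omitting the filter, and requiring 10 or more counts per sample. Promoter windows and start sites are RefSeq's; protein sequences were not used here. Python 3.11.15, pandas 2.3.3 and scipy 1.17.1 were used for tables and exact tests. Each library is 1 mouse, and nothing in the labels says whether libraries were made together. Some marker genes are not reported here.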

Additional observations from a re-analysis of the deposited data

How the results depend on the processing

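With 3 mice per group, the count of members past the threshold depended on single libraries. The members that fell numbered 8, with 2 at an adjusted p under 0.01 and 2 to 7 when 1 library was left out. Those that rose numbered 3, with 1 without a filter on low counts, 0 under 0.01 and 0 to 2 when 1 library was left out. Among members with at least 10 counts in every sample, a restriction added after the data were seen, 8 fell and 2 rose. Over all genes, 325 fell and 231 rose under 0.01, and leaving out 1 library gave 452 to 1298 and 399 to 1074. The family median was -0.07 with total counts alone, which moved the median of all genes from 0.03 to 0.12, and it was -0.21 to -0.10 when 1 library was left out. For class a, 0 fell under 0.01 and 0 to 2 with 1 library left out. For class b, 0 rose with at least 10 counts in every sample or under 0.01, and 0 to 1 with 1 library left out. The class b median was 0.21 with total counts alone and 0.02 to 0.18 with 1 library left out. For class c, 1 fell under 0.01 and 1 to 4 with 1 library left out, while 1 rose in DESeq2, 0 without a filter, 0 under 0.01 and 0 to 1 with 1 library left out. The class c median was -0.05 with total counts alone and -0.20 to -0.11 with 1 library left out. The log2 fold change of Dnajb1 was -0.03 without Vehicle replicate 1 and reached 0.30 without Vehicle replicate 3, and the other 13 named members kept their sign in every alternative that gave a value.

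Samples that share a replicate number are different mice, and their deviations from the group means correlated at -0.0573, -0.178 and 0.224 over genes, so the numbers do not pair them. With the replicate block, 6 members fell and 1 rose, and 0 of class c rose, since Dnaja3 (adjusted p 0.0515 in edgeR), Dnajc25 (0.053), Dnajc6 (0.06) and Dnajc28 (0.0643) missed the threshold. Not every sample correlated best with its own number. The causes of these changes were not tested. In the simulation the fit called 49% of the genes changed by 0.7 on the log2 scale, and smaller changes were not simulated.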
